A study of Bos taurus with 129 samples.

Results

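The 10 genes described here encode chaperones and folding enzymes of the endoplasmic reticulum: HSPA5, HSP90B1, HYOU1, DNAJB9, SDF2L1, PDIA4, PDIA6, CALR, CRELD2 and MANF. They were taken by symbol from a table of 32395 genes measured by RNA-seq in whole blood of beef steers. All 10 were among the 18937 genes that passed the filter on low counts. The genes were chosen by their level in CPM (counts per 1000000 counts of a library, on TMM-scaled library sizes) across days, disease labels and treatments of these same libraries. Their values in those comparisons are therefore given as descriptions with 95% intervals, and no p-value is given for any of the 10.

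The study followed 26 commercial crossbred steers at high risk of bovine respiratory disease (BRD), bled into Tempus tubes on day 0 and again on days 13, 28, 45 and 60, with 1 library a steer and day except that healthy AAC animal 48 has none for day 13. The disease label was negative for 12 steers, called healthy here, and positive for 14, called BRD. Steers of the INR treatment received copper, cobalt, manganese and zinc as inorganic sulfates (4 healthy, 7 BRD). Steers of the AAC treatment received the minerals complexed to amino acids (4 healthy, 4 BRD), and steers of the COMBO treatment received the complexed form plus a mineral drench before shipment, at day 0 and with any treatment for illness (4 healthy, 3 BRD). Every steer was vaccinated against respiratory viruses and treated with doramectin at day 0, and was revaccinated between the samples of days 13 and 28, so no untreated animal is available. The labels do not say when a BRD steer was ill, so BRD on a given day means the label and not the state on that day. Each pen held 1 treatment, and within COMBO all healthy steers shared pen 5 and all BRD steers pen 6, so there the disease label and the labelled pen cannot be told apart. The study's methods state that the steers were moved between pens at intervals, and the labels give 1 pen a steer.

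Proteins bound for secretion or for membranes enter the endoplasmic reticulum unfolded, and the 10 gene products help them fold, form disulfide bonds and pass quality control. When unfolded protein builds up, the sensors encoded by ERN1, EIF2AK3 and ATF6 start the unfolded protein response, and the transcription factors XBP1, ATF4 and cleaved ATF6 raise the genes of this machinery. Cells with a heavy secretory load, such as antibody-secreting plasma cells in blood, are known for high levels of it. Whole blood is a mixture, and fewer cells of a type cannot be told apart from less RNA per cell in any value below.

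Total counts ran from 31613545 to 61692136 per library, with a median of 44268685, and the lowest count of any of the 10 genes in any library was 273, for SDF2L1. Counting error was therefore small beside the spread between animals. Markers of plasma cells, B cells, T and NK cells, neutrophils, monocytes, platelets and red cells were all measured, and SDC1, a plasma cell surface marker, was at 0 in some libraries.

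HSPA5 (also called BiP), the HSP70 chaperone of the compartment and the brake on all 3 sensors, had a lowest level of 211 CPM, a median of 308 CPM and a highest level of 484 CPM over all libraries. HSP90B1 (GRP94), the HSP90 of the compartment, ran from 307 CPM through a median of 547 CPM to 1003 CPM. HYOU1, an HSP110-type exchange factor for HSPA5, ran from 78.59 CPM through 105.98 CPM to 155 CPM. The spread between the extreme libraries was thus 1.97-fold for HYOU1, 2.29-fold for HSPA5 and 3.27-fold for HSP90B1. DNAJB9 (ERdj4), a J-domain partner of HSPA5, ran from 22.53 CPM through 34.95 CPM to 57.7 CPM. SDF2L1, a partner of the HSPA5 cycle, ran from 7.48 CPM through 15.4 CPM to 32.6 CPM, the widest range of the 10 at 4.35-fold.

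PDIA4 and PDIA6 are protein disulfide isomerases. PDIA4 ran from 104.02 CPM through 166 CPM to 324 CPM, and PDIA6 from 135 CPM through 196 CPM to 298 CPM. CALR, the calcium-binding lectin that holds newly made glycoproteins until they fold, ran from 321 CPM through 451 CPM to 676 CPM. CRELD2, a stress-induced protein with disulfide isomerase activity, ran from 19.7 CPM through 30.5 CPM to 62.3 CPM, and MANF, a stress-induced protein that binds HSPA5 and can be secreted, ran from 18.2 CPM through 32.04 CPM to 67.9 CPM. The extremes fell on few animals. Healthy INR steers held the lowest library for 8 of the 10 genes (animals 10, 30 and 50), and BRD INR animal 40 for DNAJB9 and HYOU1. Healthy COMBO animals 3 and 42 held the highest library for 5 genes, and BRD AAC animal 9 for HSP90B1, DNAJB9 and HYOU1.

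**Figure D1:**
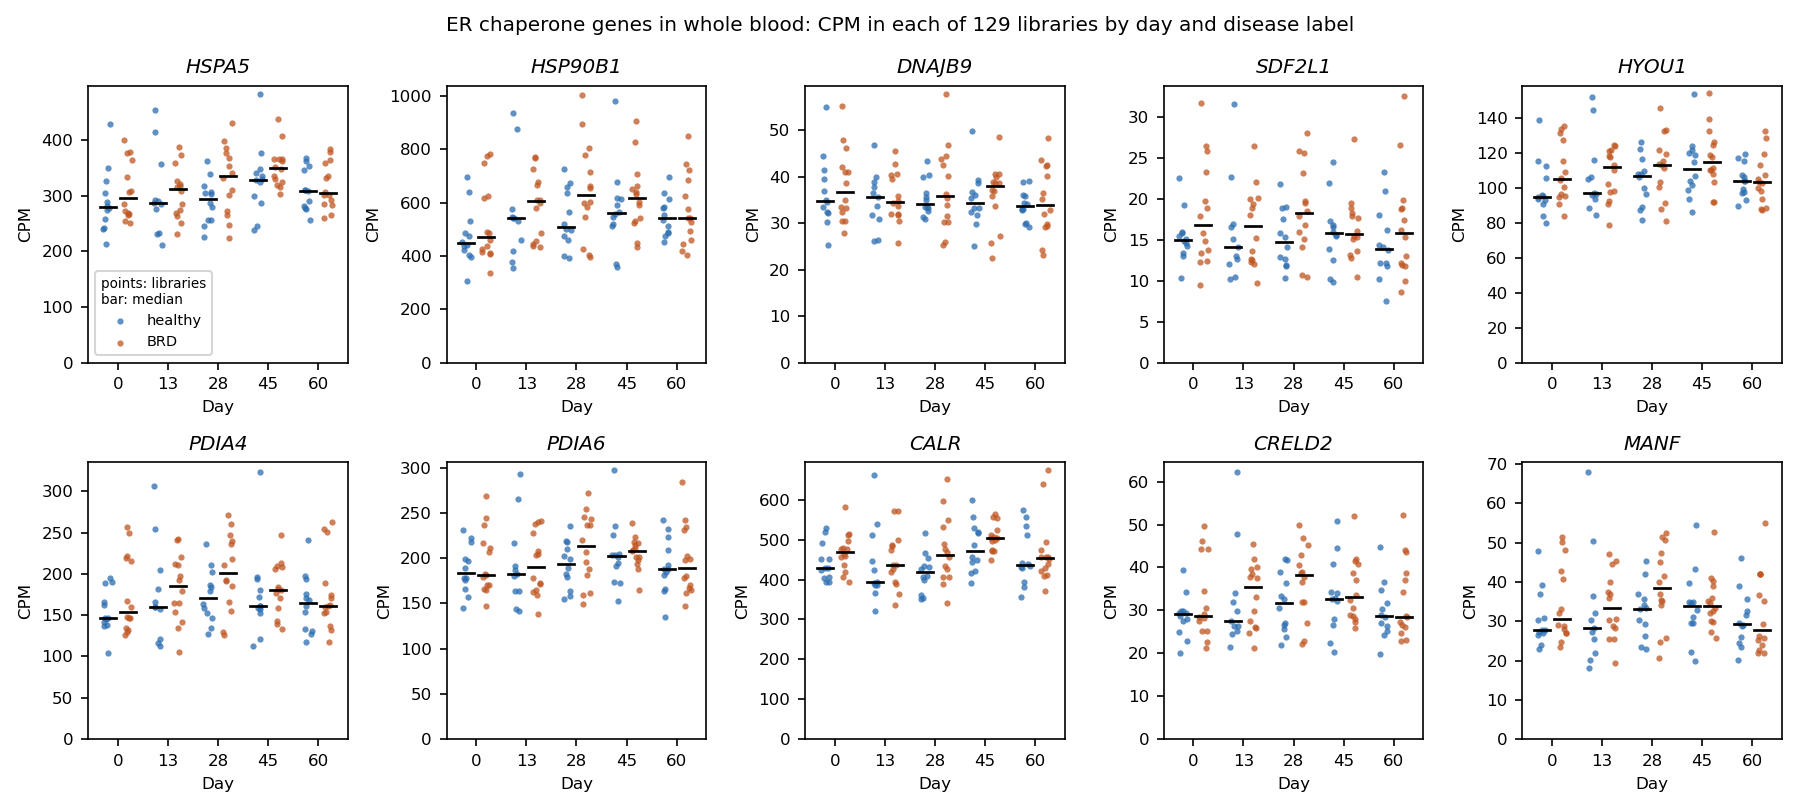
Level of each of the 10 genes (CPM, linear axis from 0) in each library by sampling day, with healthy libraries in blue, BRD libraries in orange and the median of each label as a bar. Healthy and BRD points overlap on every day for all 10 genes, and HSP90B1 has its lowest median, 456 CPM, on day 0.

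The first comparison asked how the genes moved after arrival, with each later day set against day 0 of the same steers. HSP90B1 was the gene that differed most steadily. Its level had a lowest value of 307 CPM, a median of 456 CPM and a highest value of 784 CPM on day 0. The medians were 548 CPM, 591 CPM, 591 CPM and 542 CPM on days 13, 28, 45 and 60. The libraries of each later day overlapped with those of day 0. Its log2 fold change over day 0 was 0.21 ± 0.08 (SE) on day 13, 0.24 ± 0.07 on day 28, 0.25 ± 0.07 on day 45 and 0.17 ± 0.07 on day 60. It was higher than on day 0 in 16 of 25, 18 of 26, 20 of 26 and 19 of 26 steers.

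On day 28, PDIA4 was next, with a log2 fold change of 0.18 (95% interval 0.03 to 0.33) and a median that went from 147 CPM to 186 CPM. It was higher in 18 of 26 steers. On day 45 HSPA5 was at 0.18 (0.08 to 0.29), HYOU1 at 0.13 (0.03 to 0.23) and CALR at 0.12 (0.01 to 0.22). HSPA5 had medians of 284 CPM on day 0 and 335 CPM on day 45 and was higher in 19 of 26 steers, whereas HYOU1 and CALR were each higher in 16 of 26.

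DNAJB9 stood on the other side. Its log2 fold change was negative on all 4 later days and reached -0.13 (95% interval -0.23 to -0.02) on day 60, when 20 of 26 steers were below their own day 0 value. SDF2L1 was also below 0 on all 4 days, with -0.12 (-0.33 to 0.08) on day 60 and 18 of 26 steers lower. CRELD2 had positive values throughout, from 0.03 on day 60 to 0.15 on days 28 and 45, and its intervals held 0 each time. MANF and PDIA6 lay between -0.07 and 0.12, with intervals that also held 0. The sign of the change thus differed among the 10 genes.

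By edgeR's quasi-likelihood test with Benjamini-Hochberg adjustment over all genes, at a false discovery rate (FDR) below 0.10, 1 of the 10 genes was called higher on day 13 (HSP90B1), against 17.3% of all genes. On day 28, 2 were called higher (HSP90B1 and PDIA4), against 18.6% of all genes, and on day 45, 4 were (HSP90B1, HSPA5, HYOU1 and CALR), against 15.8%. On day 60, 2 were called in either direction, HSP90B1 higher and DNAJB9 lower, against 33.4% of all genes. Since these contrasts helped to choose the genes, nothing is read from the counts. The median log2 fold change of the 10 was 0.03, 0.06, 0.11 and 0.02 on the 4 days, and that of all genes stayed between -0.0067 and 0.0079.

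Several of these values lay near the threshold. CALR on day 45 dropped out when any of 16 of the 26 steers was left out, with log2 fold changes of 0.10 to 0.12, and also with other normalization factors or no filter on low counts. PDIA4 on day 28 dropped out without animal 18 or 31 (0.16 each), and HYOU1 on day 45 without animal 18 (0.10). DNAJB9 on day 60 dropped out without animal 6, 17, 39, 40 or 43 (-0.12 to -0.10), and HSP90B1 on day 60 without animal 7, 10, 18, 31, 42, 48 or 54 (0.15 to 0.16). When the steer was not a term of the fit, 0, 1, 3 and 0 of the 10 genes passed on the 4 days.

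**Figure D2:**
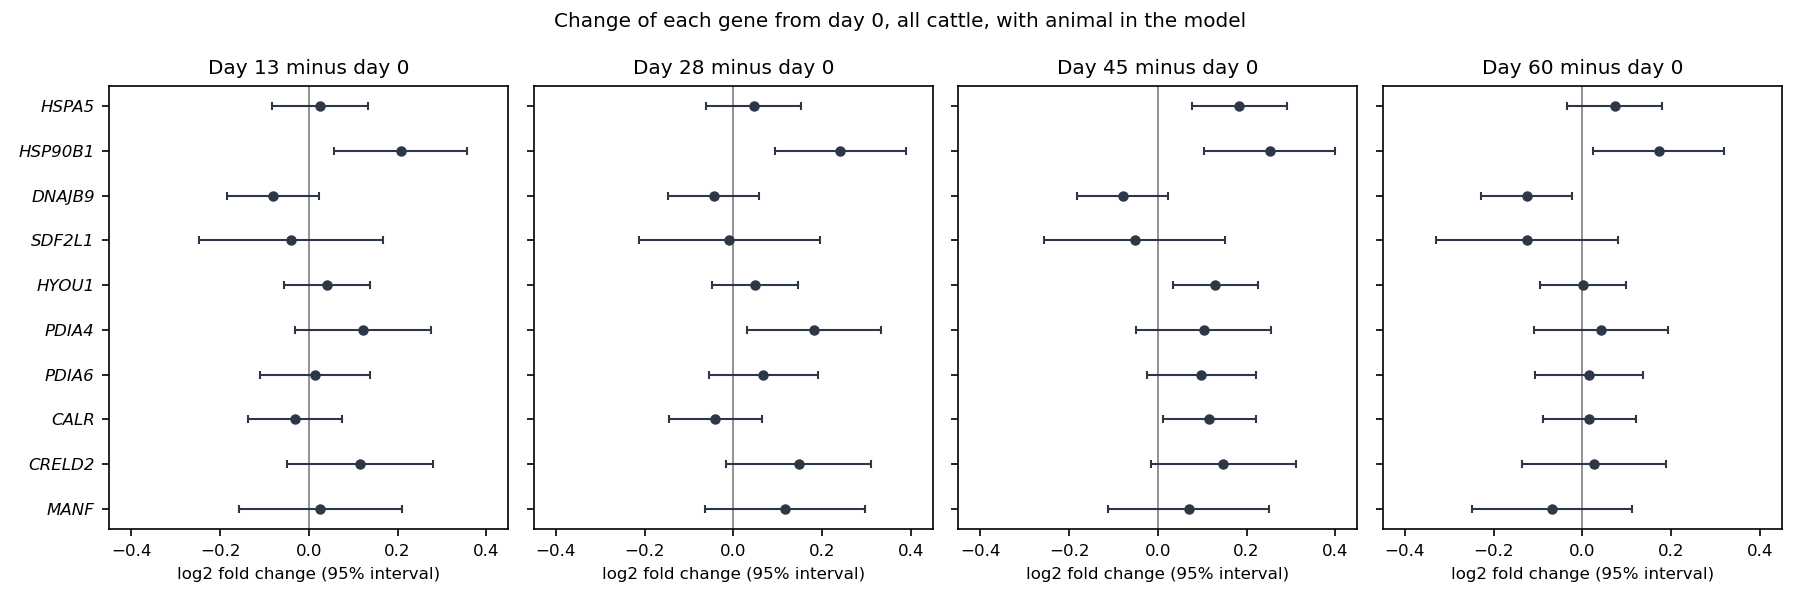
Log2 fold change from day 0 for each of the 10 genes on days 13, 28, 45 and 60 (points, edgeR estimate with 95% interval as bars), with 0 marked. HSP90B1 lies at 0.17 to 0.25 on every day and DNAJB9 lies below 0 on every day.

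The change from day 0 was also set apart by disease label. On day 13 the signed change was lower in BRD than in healthy steers for all 10 genes, with a median difference in log2 fold change of -0.07. On day 60 it was again lower for all 10, with a median of -0.06. Lower here means a smaller rise or a larger fall. On day 28 the difference was positive for 8 of 10 genes, with a median of 0.06. Every 95% interval held 0 on each of the 4 days. By the edgeR test 0% of all genes differed in change between labels on days 13, 28, 45 and 60, with 619, 863, 801 and 596 genes at an unadjusted p under 0.05, and DESeq2 called 17, 7, 13 and 8 genes, none of them among the 10.

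Other genes of the pathway, taken from lists by function, were tested against day 0 as well. The 5 lists held signalling genes of the unfolded protein response (15 tested), other folding enzymes (27), genes that clear misfolded protein (19), the translocon and secretory path (26) and targets of ATF4 (14). Of these genes, 27 passed on day 13 (5 higher, 22 lower), 32 on day 28 (12 higher, 20 lower), 25 on day 45 (15 higher, 10 lower) and 32 on day 60 (8 higher, 24 lower). These are 26.7%, 31.7%, 24.8% and 31.7% of the listed genes, below the 33.21%, 36.04%, 30.95% and 33.36% of all genes called in either direction on the same days. The signalling list had 7 called on day 13, all lower. ERN1, the sensor IRE1, fell on all 4 days, by 0.24, 0.29, 0.26 and 0.37 on the log2 scale, and its adjusted p in the edgeR test on day 60 was 2.2e-05. PPP1R15A, which restores translation after stress, fell by 0.16, 0.28, 0.10 and 0.18 (day 28 adjusted p = 3.65e-09, edgeR). ATF4 fell by 0.16, 0.19 and 0.12 on days 13, 28 and 60, and was at -0.05 ± 0.04 on day 45. XBP1 did not pass on any day and stayed between -0.05 and 0.02. EIF2AK3 passed on no day either, and DDIT3, the stress factor CHOP, fell on day 28 by 0.19 and on day 45 by 0.15, while its day 13 call (a fall by 0.12) was lost with DESeq2 and with 4 other settings.

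Among other folding enzymes of the compartment, FKBP14, a prolyl isomerase, rose by 0.46 on day 13, 0.54 on day 28 and 0.36 on day 60 on the log2 scale (edgeR adjusted p from 3.71e-12 to 1.04e-06). TXNDC5, a disulfide isomerase, rose by 0.29 on day 28 (adjusted p = 0.0164, edgeR). CANX, the membrane-bound partner of CALR, rose by 0.09 on day 45, the day on which CALR was at 0.12. PDIA3 fell by 0.12 on day 28, when PDIA4 was at 0.18. DNAJB11, a J-domain partner of HSPA5, passed on no day and lay between 0.01 and 0.08. Of the genes that clear misfolded protein, OS9 fell on days 13, 28 and 60 by 0.15, 0.18 and 0.14, and HERPUD1 by 0.19, 0.21 and 0.15, the last of which was lost without animal 6 (-0.12). The receptor KDELR1, which returns chaperones with a KDEL tail to the compartment, fell on all 4 days by 0.26, 0.25, 0.17 and 0.28, and day 45 was lost without animal 21 or 29 (-0.16 to -0.14).

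Cell markers moved over the same days. The summed level of 10 plasma cell markers had medians of 1126 CPM, 1314 CPM, 1386 CPM, 1218 CPM and 1124 CPM from day 0 through days 13, 28 and 45 to day 60, with libraries between 807 CPM and 2219 CPM. On day 13, 3 of the 10 markers rose and 1 fell, on day 28 it was 7 and 2, on day 45 2 and 1, and on day 60 1 and 1. JCHAIN, the joining chain of secreted IgM and IgA, rose by 0.37 and 0.32 on days 13 and 28, TNFRSF17 by 0.62 and 0.55, and MZB1, a plasma cell cofactor of HSP90B1, by 0.41 on day 28. These 3 did not pass on days 45 and 60. PRDM1, another of the 10 markers, went the other way, at -0.20 on days 13 and 45. Both of these calls were lost at an FDR below 0.05. PRDM1 was also called lower on day 60. That call held at an FDR below 0.05 and was lost when the steer was not a term of the fit (-0.23). The summed neutrophil markers (6 genes) had a median of 1805 CPM on day 0 and 1118 CPM to 1356 CPM later, and the summed monocyte markers (6 genes) 666 CPM on day 0 and 422 CPM to 500 CPM later. The summed red cell markers (5 genes) had medians of 108.7 CPM on day 0 and 664 CPM to 1723 CPM later. The part of these shifts in the day values of the 10 genes was not tested.

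The next comparison set BRD against healthy steers on each day, with the 3 treatments weighted equally. The estimates of the 10 genes lay on the side of BRD steers on 4 of the 5 days, but no gene was called on any day, and outside day 28 every 95% interval held 0. The log2 difference was positive for 10 of 10 genes on days 0, 28, 45 and 60, with medians of 0.16, 0.26, 0.09 and 0.12, and for 7 of 10 on day 13, with a median of 0.04. The medians of all genes were between -0.0033 and 0.0123. The 10 genes vary together from library to library, so 10 equal signs are not 10 separate observations.

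Day 28 had the largest differences. HSPA5 ran from 226 CPM through a median of 295 CPM to 362 CPM in the 12 healthy steers and from 224 CPM through 336 CPM to 432 CPM in the 14 BRD steers. HSP90B1 ran from 392 CPM through 511 CPM to 726 CPM in healthy steers and from 395 CPM through 629 CPM to 1003 CPM in BRD steers. SDF2L1 ran from 10.3 CPM through 14.7 CPM to 21.8 CPM and from 10.5 CPM through 18.2 CPM to 28.1 CPM. For all 3 the lowest BRD steers lay as low as the lowest healthy steers, and the groups parted at the top. The log2 differences were 0.23 ± 0.08 (SE) for HSPA5, 0.33 ± 0.13 for HSP90B1, 0.37 ± 0.15 for SDF2L1, 0.32 ± 0.14 for MANF, 0.29 ± 0.12 for PDIA4, 0.28 ± 0.13 for CRELD2 and 0.22 ± 0.08 for CALR, whose 95% intervals left out 0. Those of PDIA6 (0.18, -0.0046 to 0.36), HYOU1 (0.15, -0.0051 to 0.30) and DNAJB9 (0.11, -0.08 to 0.30) held 0.

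None of the 10 genes was called by the edgeR test on any day. The share of all genes called was 0.0158% on day 0, 0% on day 13, 0.00528% on day 28, 0% on day 45 and 0.00528% on day 60, with 1347, 716, 1635, 800 and 689 genes at an unadjusted p under 0.05. DESeq2 called 98, 36, 40, 31 and 30 genes, again none of the 10. On day 28, 7 of the 10 genes had an interval without 0, and 8.63% of all genes had an unadjusted p under 0.05. On the other 4 days it was 0 of 10. These contrasts also helped to choose the genes, and the 10 vary together, so nothing is read from these counts.

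**Figure D3:**
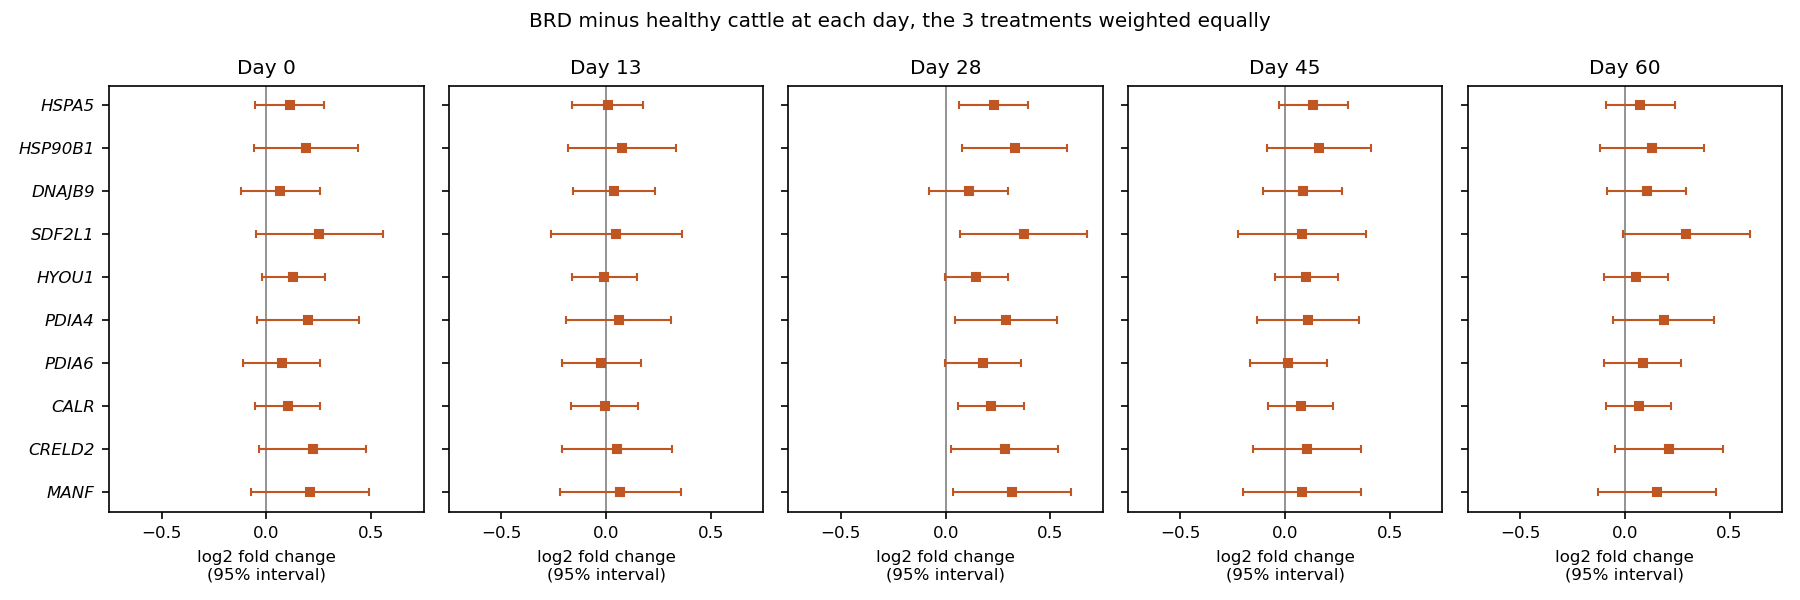
Log2 difference between BRD and healthy steers for each of the 10 genes on each day (points, edgeR estimate with 95% interval as bars), with 0 marked. All points of days 0, 28, 45 and 60 lie above 0, and the day 28 points of 7 genes have intervals that leave out 0.

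The difference was also taken within each treatment. On day 13 the median over the 10 genes was 0.39 in INR, with 10 of 10 positive, -0.18 in COMBO, with 10 of 10 negative, and -0.12 in AAC, with 9 of 10 negative. In INR on that day HSPA5 ran from 211 CPM to 287 CPM in the 4 healthy steers and from 231 CPM to 374 CPM in the 7 BRD steers, and the log2 difference of MANF was 0.63 (95% interval 0.19 to 1.08). In COMBO the day 13 value rested in part on healthy animal 3. Without it the differences of CALR, CRELD2 and MANF were -0.06 to 0.21. The difference between treatments in these values was not tested, because treatment was one of the labels by which the genes were chosen. The intervals of AAC and COMBO on day 13 all held 0. On day 28 the medians were 0.23 in AAC, 0.26 in COMBO and 0.30 in INR. On day 45 they were 0.16 in AAC and 0.18 in INR, each with 10 of 10 genes positive, and -0.03 in COMBO, with 9 of 10 negative. On day 60 they were -0.02 in AAC, with 5 of 10 positive, 0.03 in INR, with 6 of 10 positive, and 0.37 in COMBO, with 10 of 10 positive, so the positive median of that day came with COMBO, where label and labelled pen cannot be told apart. COMBO on day 0 also turned on 1 steer, since without BRD animal 16 the differences of 7 genes were -0.61 to -0.20.

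Pens 2, 3, 4 and 8 held steers of both labels, so the difference could be taken within a pen. Pen 3 had 1 healthy steer and pen 4 had 1 BRD steer, so the values of these pens each rest on an arm of 1 animal. On day 0 the within-pen medians over the 10 genes were 0.15, 0.36, 0.18 and 0.14 in pens 2, 3, 4 and 8. On day 28 they were 0.28, 0.18, 0.53 and 0.18, each with 9 or 10 genes positive. On day 13 they were 0.20, 0.62, -0.18 and -0.58, so the pens went opposite ways. On day 45 they were 0.19, 0.49, 0.04 and 0.10, and on day 60 0.03, 0.03, 0.38 and -0.03. Summed plasma cell markers had a median of 1255 CPM in the 70 BRD libraries (807 CPM to 2219 CPM) and 1157 CPM in the 59 healthy libraries (842 CPM to 2160 CPM), and their part in the difference was not tested.

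Of the other genes of the pathway, 1 passed between the labels on day 0 and 0 on days 13, 28, 45 and 60. The gene was SESN2, a stress-induced inhibitor of growth signalling, which was higher in BRD steers by 0.67 on the log2 scale (adjusted p = 0.0673, edgeR). It ran from 10.7 CPM through 12.9 CPM to 22.51 CPM in healthy steers and from 11.4 CPM through 17.6 CPM to 48.4 CPM in BRD steers. The call was lost when any of 10 steers was left out (animals 18, 21, 23, 42, 43, 46, 49, 50, 54 and 57, log2 difference 0.57 to 0.68).

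The third comparison set the mineral treatments against each other on each day. The estimates of the 10 genes were lower in INR than in either other treatment on every day, and none of the 10 was called. AAC minus INR was positive for 10 of 10 genes on all 5 days, with medians of 0.25, 0.32, 0.38, 0.23 and 0.23 from day 0 to day 60 in order, and COMBO minus INR likewise, with medians of 0.15, 0.20, 0.35, 0.28 and 0.36. The same INR steers stand in both comparisons. Treatment helped to choose the genes and the 10 vary together, so 10 equal signs are not 10 separate observations. AAC minus COMBO changed side, with a median of 0.12 on day 13 and -0.19 on day 60.

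By gene, the difference between AAC and INR on day 28 was 0.53 (95% interval 0.24 to 0.82) for HSP90B1, 0.52 (0.17 to 0.87) for SDF2L1, 0.45 (0.13 to 0.78) for MANF and 0.33 (0.13 to 0.52) for HSPA5, and 0.22 (0.04 to 0.40) for CALR. The largest difference between COMBO and INR was that of SDF2L1 on day 60, at 0.67 (0.30 to 1.03). The day 0 values were already on the same side. The pens lie within the treatments, with AAC in pens 2 and 8, COMBO in pens 5 and 6 and INR in pens 3, 4 and 7, and pen was not a term of the fit.

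In the edgeR test across the 3 treatments the share of all genes called was 0.106% on day 0, 0.306% on day 13, 0.0422% on day 28, 0.037% on day 45 and 0.0211% on day 60, with 1542, 2030, 1145, 949 and 1113 genes at an unadjusted p under 0.05, and DESeq2 called 96, 164, 12, 8 and 5 genes, none of the 10. Of the other pathway genes, 1 passed on day 0 (TRIB3, a pseudokinase induced by ATF4) and 0 on the later days. TRIB3 had medians of 138 CPM in AAC, 175 CPM in COMBO and 172 CPM in INR, and the call was lost without any of 10 steers (animals 3, 6, 9, 18, 21, 34, 42, 46, 48 and 54).

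INR was low among healthy and among BRD steers. With each steer taken as its mean over all its days, the 4 healthy INR steers ran from 239 CPM through a median of 262 CPM to 277 CPM for HSPA5, and the 8 other healthy steers from 290 CPM through 339 CPM to 350 CPM. For MANF the healthy INR steers ran from 22.1 CPM through 26.59 CPM to 27.35 CPM and the others from 29.5 CPM through 36.4 CPM to 40.1 CPM. For SDF2L1 it was 10.6 CPM through 12.8 CPM to 13.301 CPM against 15.2 CPM through 17.1 CPM to 18.6 CPM. All 4 healthy INR steers thus lay below all 8 others for these 3 genes, and the same held for HSP90B1, CALR, PDIA4, PDIA6, CRELD2 and HYOU1, so for 9 of the 10 genes, against 0.396% of all genes. Label and treatment helped to choose the genes, and the 10 vary together, so nothing is read from this count.

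DNAJB9 was the exception, with 27.6 CPM to 36.3 CPM in healthy INR steers and 32.4 CPM to 41.02 CPM in the others. The log2 difference between the mean of the 4 and the mean of the 8 ran from -0.18 for DNAJB9 to -0.47 for MANF, with a median of -0.36 over the 10 genes. This pattern was noticed in the animal means and is not a test. It held for the same number of genes, 9, on the mean of days 13 to 60. Leaving out a steer cannot create overlap, so the 9 genes kept with any 1 of the 12 healthy steers left out are no check. The median difference over the 10 genes was then -0.39 to -0.31. On single days the groups parted less, for 7 genes on day 28 and for 0 genes on days 0, 13, 45 and 60, although the median difference was negative on each (-0.29, -0.51, -0.39, -0.32 and -0.20 from day 0 to day 60).

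Among BRD steers the INR group had the lowest mean of the 3 treatments for 10 of the 10 genes, and its steers overlapped with other BRD steers for all 10. HSPA5 was at 304 ± 20.5 CPM (SD, n = 7) in BRD INR steers, 344 ± 31.8 CPM (n = 4) in BRD AAC steers and 339 ± 13.99 CPM (n = 3) in BRD COMBO steers. HSP90B1 was at 536 ± 79.298 CPM, 646 ± 115.4 CPM and 655 ± 88.995 CPM. The 7 BRD INR steers overlapped with the healthy INR steers for most genes. HSPA5 ran from 277.3 CPM through 308 CPM to 333 CPM in BRD INR steers and CALR from 431 CPM through 462 CPM to 517 CPM, both above all 4 healthy INR steers, whose highest values were 276.7 CPM and 415 CPM. These were the 2 genes of the 10 without overlap, against 0.19% of all genes. The disease label also helped to choose the genes, so nothing is read from this count either. For HSPA5 the gap was under 1 CPM.

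Some plasma cell markers ran the same way in the healthy INR steers. Their summed level was 931 CPM to 1088 CPM in the 4 steers and 1098.5 CPM to 1668 CPM in the 8 others, and 7 of the 10 markers had a lower median in healthy INR steers. SDC1, CD38 and TENT5C had a higher median there. JCHAIN, the marker with the highest level in the sum, was at 287 CPM to 356 CPM against 400 CPM to 748 CPM. It was the only marker of the 10 without overlap, against 0.396% of all genes. MZB1 was at 29.2 CPM to 43.1 CPM against 39.4 CPM to 65.1 CPM. The summed cell cycle genes (8 genes) were at 451 CPM to 508 CPM against 490 CPM to 721 CPM, with overlap. The summed B cell markers overlapped fully, at 1965 CPM to 3606 CPM against 2114 CPM to 3527 CPM. The part of the plasma cell markers or cell cycle genes in the values of the 9 genes was not tested. Of the 4 healthy INR steers, 3 came from pen 4 and 1 from pen 3.

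**Figure D4:**
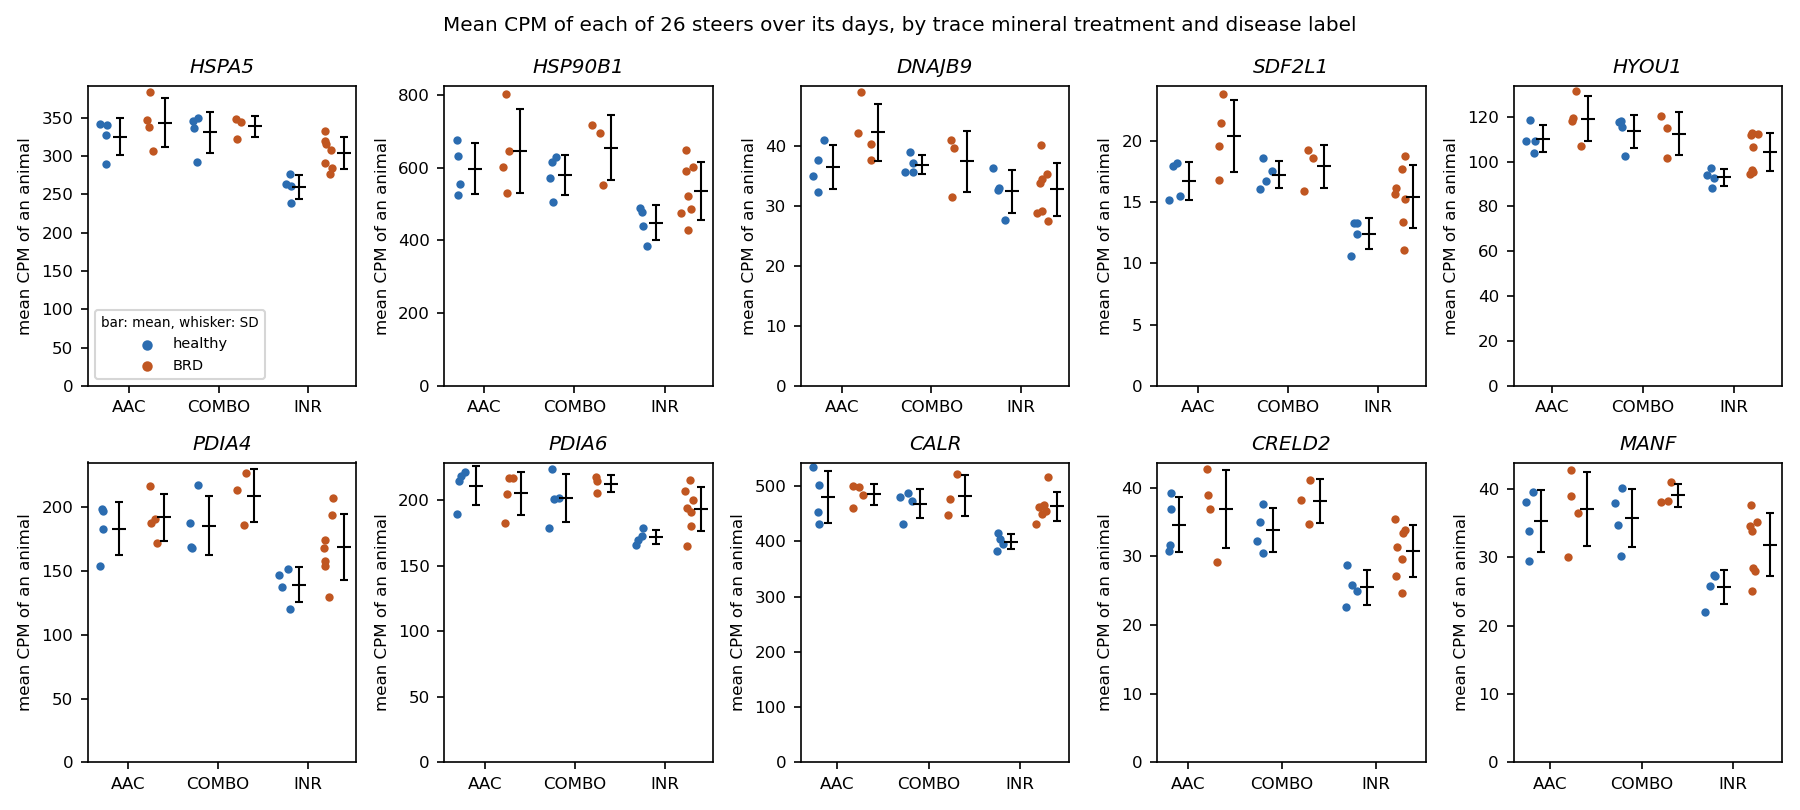
Mean level over all sampling days of each steer (CPM, 1 point a steer) for each of the 10 genes, by disease label and treatment, with the mean of a group as a bar and its SD as a whisker. The 4 healthy INR points lie below all 8 points of the other healthy groups for 9 genes, and overlap with them for DNAJB9.

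The steer took a larger share of the variation than the day. There were 26 steers and 5 days, and more levels raise a share by themselves. The steer also carries its treatment, label and pen, so the shares are not directly comparable. Of the variance of log2 CPM over all libraries, the steer took between 30.4% (CALR) and 57.9% (DNAJB9) and the day between 1.56% (SDF2L1) and 8.10% (CALR). Over all genes the medians were 42.1% for the steer and 5.66% for the day, so the share of the steer was close to that of a typical gene. The means of single steers differed most for SDF2L1, by 2.24-fold, and for HSP90B1, by 2.09-fold (385 CPM in healthy INR animal 10 and 804 CPM in BRD AAC animal 9), and least for PDIA6, by 1.36-fold. BRD AAC animal 9 had the highest mean for 7 of the 10 genes, and healthy INR animal 10 the lowest for 7.

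Within groups the 10 genes varied together from library to library. After removal of the mean of each of the 30 groups of day, label and treatment, the Pearson correlations of the 45 pairs of genes ran from 0.20 to 0.94 over all libraries, and their median was 0.82. The group means by which the genes were chosen are taken out of these values. The libraries share steers, so they are not independent points, and the correlations are descriptions. CRELD2 and MANF were the closest pair (0.94), followed by HSP90B1 with PDIA4 (0.92) and HSPA5 with MANF (0.92). CALR and DNAJB9 were the farthest (0.20), and CALR had correlations of 0.54 with HYOU1 and 0.58 with HSP90B1, whereas DNAJB9 had 0.78 with both. The set therefore held a broad core with CALR at one edge and DNAJB9 at the other.

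A score was formed as the mean of the standardised residuals of the 10 genes. The highest scores were those of healthy COMBO animal 3 on day 13, BRD COMBO animal 16 on day 0, healthy COMBO animal 42 on day 45 and BRD INR animal 39 on day 0, and the lowest those of BRD INR animals 40 on day 13 and 43 on day 28. In the highest library, MANF was at 67.9 CPM, CRELD2 at 62.3 CPM and HSP90B1 at 938 CPM, beside 1050 CPM of JCHAIN and 139 CPM of MZB1. In the lowest library they were at 19.3 CPM, 21.1 CPM and 438 CPM, beside 220 CPM of JCHAIN and 19.7 CPM of MZB1. The correlations of the score between days over the steers were positive for 8 of the 10 pairs of days and ran from -0.31 (days 13 and 60) to 0.38 (days 28 and 60) over 25 or 26 steers.

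Outside the 10 genes, the 10 genes whose residuals were most like the score were DNAJB11 (Pearson correlation 0.95), SEC61A1 (0.94), MZB1 (0.93), MOGS (0.90), BHLHA15 (0.89), TXNDC5 (0.88), XBP1 (0.88), SEC11C (0.87), TXNDC11 (0.87) and CKAP4 (0.87), over all libraries. Spearman's rho was 0.85 to 0.94 for these genes. SEC61A1 is the channel through which proteins enter the compartment, MOGS trims the first sugar of glycoproteins, SEC11C is part of the signal peptidase, and BHLHA15 is a transcription factor of secretory cells. Without the 2 libraries farthest from the median score (animal 3 on day 13 and animal 16 on day 0) the correlations were 0.86 to 0.94, within single days they were 0.72 to 0.98, and over the means of the steers 0.83 to 0.95.

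By list, 20 of 26 genes of the translocon and secretory path (76.9%) had a correlation above 0.5 with the score, as did 7 of 10 plasma cell markers, 11 of 27 other folding enzymes and 3 of 8 cell cycle genes, against 365 of 18927 genes outside the set (1.93%). None of 12 cytosolic chaperones, 8 B cell, 10 T and NK cell, 6 neutrophil, 6 monocyte, 5 platelet or 5 red cell markers did, and the B cell markers had a median of -0.21. Of the 15 signalling genes only XBP1 was above 0.5. The 2 edge genes differed in their correlations with ERN1 (0.64 with DNAJB9 and -0.13 with CALR) and with ATF4 (-0.15 with DNAJB9 and 0.53 with CALR). Whether ERN1 or ATF4 acts on either gene was not tested. The genes nearest to CALR were MYDGF, LMAN2 and DDOST (0.87 each), and those nearest to DNAJB9 were TRAM2 (0.82), FNDC3B (0.82) and MAP3K21 (0.80), all 6 named after their values were seen.

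**Figure D5:**
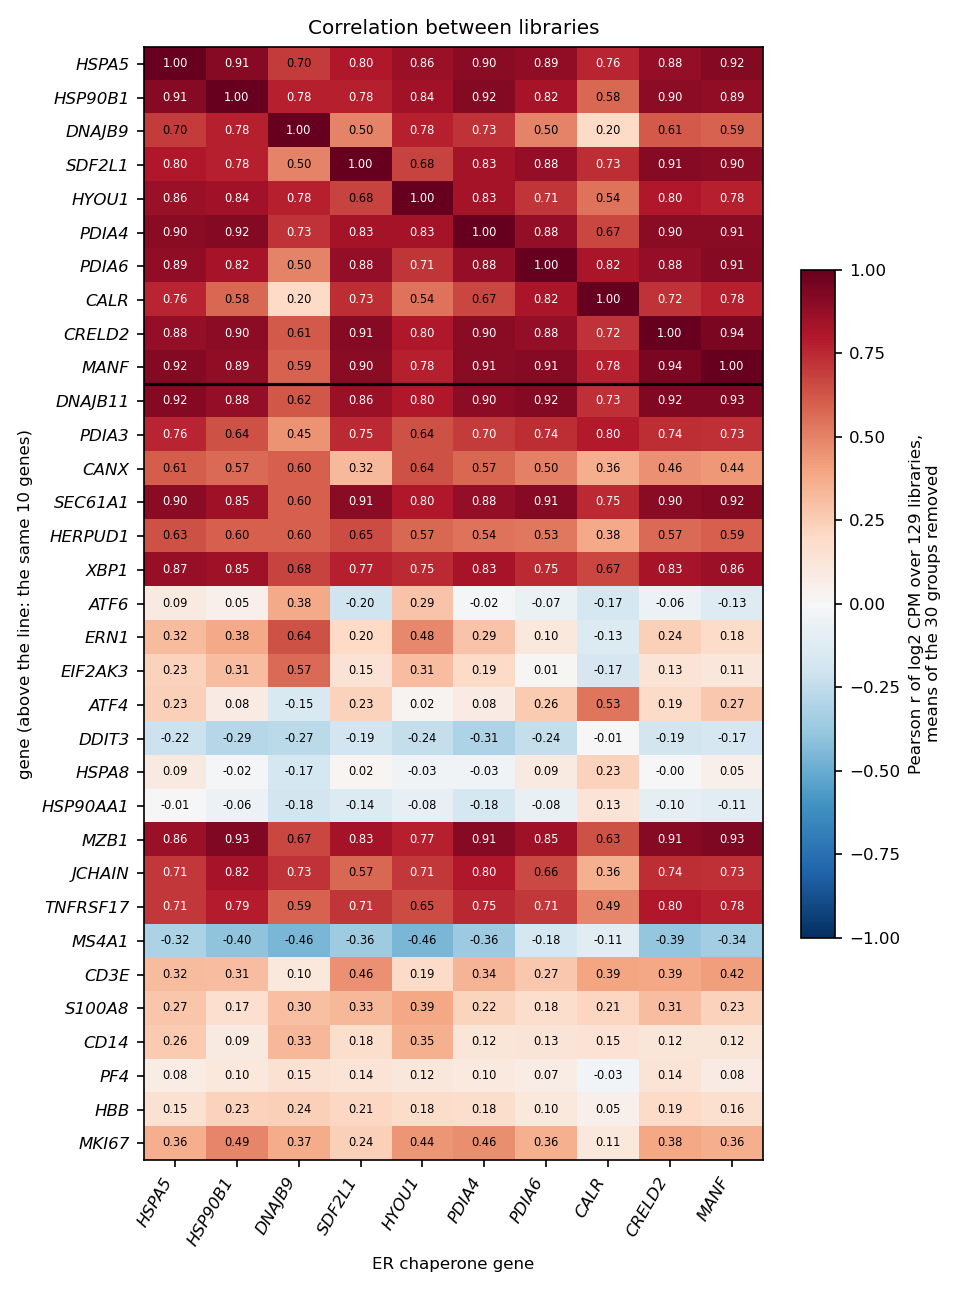
Pearson correlations between the residuals of the 10 genes over all libraries after removal of the means of the 30 groups (colour scale and printed values), and below the line their correlations with genes of other lists. CRELD2 and MANF have the highest value (0.94) and CALR and DNAJB9 the lowest (0.20).

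The day 60 library of BRD INR animal 40 was noted by the submitters for an RNA integrity number below 6, and CALR and DNAJB9 parted in it. CALR was at 676 CPM, the highest of all libraries, while DNAJB9 was at 24.2 CPM, the third lowest, and HYOU1 at 88.7 CPM, below its median of 105.98 CPM. Without this library the same members passed in each comparison of days.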

How the data were processed

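Tempus whole blood from 26 steers gave the stranded mRNA libraries. The authors trimmed reads with Trimmomatic 0.39, aligned them with HISAT2 to the ARS-UCD1.3 build, assembled with StringTie 2.2.0 and deposited a gene count table made with prepDE at an average read length of 150, so the counts are derived from coverage and are not direct read tallies. Counts were used as deposited, with no column left out. Genes were kept by filterByExpr, scaled by TMM and tested in edgeR 4.0.16 (R 4.3.3) by the quasi-likelihood test at an FDR below 0.10. Days were compared with the steer as a block, since same-numbered libraries are the same steer (median correlation of deviations 0.37 within a steer and -0.01 between steers). Labels and treatments were compared within days over 30 groups. CPM used TMM library sizes, and log2 CPM a prior count of 2.

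The members and lists were chosen with earlier results of these data known. Named genes were the 10 members, up to 4 genes of each list a comparison with the smallest p among calls, 13 pathway and plasma cell genes in any case, and the 10 genes most like the score. On simulated counts for all 18937 genes the day 13 fit recovered 84 of 100 genes changed by 0.5 and 100 of 100 by 1 on the log2 scale, and the day 0 label fit 11 and 87. Every simulated gene had the common dispersion of its fit, so these rates do not describe the 10 genes. Alternatives were RLE factors, a trended dispersion, no filter, no block, DESeq2 1.42.0, a stricter FDR and single libraries, steers or treatments left out. No transcript lengths of the build were used, so levels are not compared between genes. P-values of the day comparisons measure the spread of changes within steers. Those of labels and treatments measure the spread between steers of a group, pooled over all days. No term for the steer was in the label and treatment fits, so libraries of 1 steer counted as independent there, also in the intervals.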

Additional observations from a re-analysis of the deposited data

Results flagged for a closer look

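Within the groups of 4 to 7 steers of 1 day, label and treatment, 240 sets of values of the 10 genes were examined for a library far from the others of its group, and 18 (7.5%) held one by Dixon's criterion, which chance alone would flag in about 1 of 20 groups. The 10 genes vary together, so several of these are the same library seen through different genes. Healthy COMBO animal 42 on day 45 stood above its group for HSPA5 (484 CPM), HSP90B1 (981 CPM), CRELD2 (50.9 CPM) and MANF (54.62 CPM). Healthy COMBO animal 3 on day 13 stood above its group for HSPA5 (454 CPM), CALR (662 CPM) and CRELD2 (62.3 CPM), and on day 28 for MANF (45.3 CPM). Healthy COMBO animal 6 stood above its group on day 0 for HSP90B1 (698 CPM). Thus 9 of the 18 came from healthy COMBO steers, each on the high side.

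Healthy INR animal 30 stood below its group on day 60 for CALR (356 CPM) and PDIA6 (135 CPM), and healthy INR animal 10 on day 0 for PDIA4 (104.02 CPM). BRD INR animal 40 stood above its group on day 60 for CALR (676 CPM) and CRELD2 (38.6 CPM), in the library noted for low RNA integrity, and BRD INR animal 29 below on day 45 for PDIA6 (165 CPM). In healthy AAC on day 45, animal 49 was low for SDF2L1 (12.6 CPM) and HYOU1 (98.7 CPM) and animal 48 high for PDIA6 (226 CPM). No explanation of these values was tested.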

How the results depend on the processing

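The log2 fold changes of the 10 genes moved by less than 1 SD between replicates under RLE factors, a trended dispersion or no filter. The same held with DESeq2, with no replicate block and without the day 60 library of animal 40. Signs were compared only for called values, and none of those reversed. For the changes from day 0 that SD was larger than the fold change of every gene, so the bound is loose. Without the replicate block, 0 of the 10 genes were called on day 13 (1 with the block), 1 on day 28 (2 with it) and 0 on day 60 (2 with it), and of the other pathway genes 20 on day 28, 7 on day 45 and 13 on day 60 (32, 25 and 32 with it). Over all genes the paired fit called 6289, 6825, 5861 and 6318 and the fit without the block 3995, 4025, 2823 and 3382. At an FDR below 0.05, 1 member was called on day 28 and 0 on day 60, and 0 other pathway genes passed on day 0 between labels or between treatments. Between labels on day 0 the other pathway genes called were 1 in the fit reported, 2 without the day 60 library of animal 40, 3 with DESeq2, 3 in AAC alone, 11 in COMBO alone and 0 in INR alone, and on day 28 1 in AAC alone.

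With each steer left out, the members called were 1 on day 13, 1 to 3 on day 28, 2 to 4 on day 45 and 1 to 2 on day 60, and the other pathway genes 23 to 39, 29 to 37, 22 to 30 and 25 to 38. Between labels on day 0 the other pathway genes called were 0 to 6, between treatments 0 to 7 on day 0 and 0 to 1 on day 13, and every other count stayed at 0. Over all genes DESeq2 called 98, 36, 40, 31 and 30 genes between labels on days 0 to 60 (edgeR 3, 0, 1, 0 and 1) and 96 and 164 between treatments on days 0 and 13 (edgeR 20 and 58). The causes of these differences were not tested.

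The settings for healthy INR steers were added after seeing the data. The number of genes with all 4 healthy INR steers below the other healthy steers was 9 over all days and 0 on each of days 0, 13, 45 and 60 alone. It was 9 with each healthy steer left out, but leaving out a steer could not lower it. Counts of the 10 genes were at least 273, so the number of steers, not depth, limits these values. In the simulation a log2 difference of 0.5 between labels was recovered for 11 of 100 genes. It gave every gene the common dispersion of 0.152, so this rate does not describe the 10 genes. Their own SE between labels on day 0 was 0.08 to 0.15. Pens lay within treatments and pen was not a term of any fit, and neither the timing of illness nor the share of each blood cell type is known.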

Other observations

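Cytosolic chaperones, which serve folding outside the endoplasmic reticulum under the heat shock factor HSF1, were called in both directions over the 60 days. Of 12 tested, 3 fell on day 13 and 7 fell on day 28, whereas 10 rose on day 45, and on day 60 7 rose and 1 fell (edgeR, FDR below 0.10). Of all genes 33.21%, 36.04%, 30.95% and 33.36% were called on the 4 days, so the 3 of 12 on day 13 lie below that share. On day 45 HSPH1, an HSP110 protein, rose by 0.79 ± 0.16 (SE) on the log2 scale (adjusted p = 4.52e-05, edgeR), DNAJB1 by 0.56 ± 0.10, STIP1 by 0.46 ± 0.08 and HSPA4 by 0.26 ± 0.05. On day 28 HSPB1 fell by 0.46 ± 0.08 and DNAJA1 by 0.31 ± 0.10. On day 45 HSPA5, HSP90B1, HYOU1 and CALR of the endoplasmic reticulum were at 0.12 to 0.25. The cytosolic list was nevertheless apart from the 10 genes within groups, with a median correlation to their score of 0.01 and a highest of 0.23 over libraries that share steers.

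Targets of ATF4 also split. NUPR1, a stress-induced chromatin protein, rose by 0.97 on days 13 and 28 and by 0.91 on day 45, and MTHFD2, a mitochondrial folate enzyme, by 0.15 on day 13 and 0.25 on day 45. DDIT4, an inhibitor of mTORC1, fell by 0.61, 0.85 and 0.51 on days 13, 28 and 60, and SLC3A2, an amino acid transporter subunit, by 0.22, 0.23 and 0.22. Of 14 such genes 4, 8, 7 and 6 passed on the 4 days, with 2, 5, 5 and 3 of them higher, against the same shares of all genes, and the 4 of 14 on day 13 lie below that share.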
